A study of Mus musculus with 68 samples.

Results

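Kit, Myc, Meis1, Erg, Fli1, Spi1, Cd34, Runx1 and Lyl1, a set of stem and progenitor genes made up of a growth factor receptor, a surface marker and 7 transcription factors, were followed through mouse bone marrow erythropoiesis. The 9 genes were taken by symbol from a fixed list, and all 9 of the 24059 symbols were present in both deposited count tables. RNA was sequenced from erythroid cells that had been enriched by flow cytometry from bone marrow, in 68 libraries of 2 series. The knockout series has 3 GS-KO and 3 wild type (WT) libraries in each of 5 gates, which are BFU-E and CFU-E progenitors, the early erythroblasts of ERY-I-II, the late ones of ERY-III-VI, and ERY-V-VI, reticulocytes with red cells. The stage series has 38 libraries of 8 gates and carries no genotype label, with 3 libraries of BFU-E, 5 of CFU-E, 7 of ERY-I (proerythroblasts), 4 of ERY-II (basophilic), 4 of ERY-III (polychromatic), 4 of ERY-IV (orthochromatic erythroblasts), 7 of ERY-V (reticulocytes) and 4 of ERY-VI (red cells). The ERY-III-VI samples are described as polychromatic and orthochromatic despite the VI in the name. GS is read here as glutamine synthetase, since no label expands it, and no strain, age, Cre driver or pooling of mice is stated.

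BFU-E and CFU-E are the committed erythroid progenitors, and both depend on stem cell factor, the ligand of the receptor tyrosine kinase KIT, before erythropoietin takes over. MYC binds DNA with its partner MAX and drives growth and ribosome production, and its shutdown is part of terminal erythroid maturation. MEIS1, ERG, FLI1, PU.1 (the product of Spi1), RUNX1 and LYL1 are transcription factors of the stem cell circuit, CD34 is a sialomucin of stem and progenitor cells, and PU.1 is also the master regulator of neutrophils, macrophages and B cells, which opposes GATA1 in red cell precursors.

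On the mouse build GRCm38 (mm10) the GENCODE M21 annotation places Kit at chr5:75574916-75656722, Myc at chr15:61985391-61990374, Spi1 at chr2:91082390-91115756, Cd34 at chr1:194938819-194961279 and Lyl1 at chr8:84701457-84704715 on the plus strand. Meis1 lies at chr11:18879817-19018985, Erg at chr16:95359169-95586593, Fli1 at chr9:32422204-32542861 and Runx1 at chr16:92601466-92826149 on the minus strand. Exons of Lyl1 overlap those of Nfix on the opposite strand and exons of Cd34 overlap the antisense gene Gm16897. The strand setting of the counting is not given in the sources used here, so reads of these pairs may be shared. Nfix averaged 237 ± 16.0 CPM (counts scaled to a library total of 1000000) in BFU-E and 14.9 ± 9.41 CPM in ERY-VI (SD, n = 3 and 4), while Gm16897 averaged at most 0.997 CPM in any group.

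The upstream sequences of 3 genes are shown because their genes had the most unlike courses below. They are the RefSeq promoter bases (GRCm38.p6) of Kit, which fell at each step as far as ERY-II, of Cd34, which was near 0 in WT gates after BFU-E, and of Lyl1, which persisted into late erythroblasts. Each window begins 250 bases before the RefSeq start site and is given 5′ to 3′ as far as the first GENCODE exon, at chr5:75574737-75574915, chr1:194938571-194938818 and chr8:84701207-84701456, all on the plus strand. Capitals mark matches, on either strand, to a GATA site, an E-box of the MYC type (CACGTG), an ETS core (CGGAAG) or a PU.1 core (GAGGAAG). The letters searched for a GATA site were AGATAA, or AGATAG with its last base changed, or TGATAA with its first base changed, or TGATAG with both.
Kit: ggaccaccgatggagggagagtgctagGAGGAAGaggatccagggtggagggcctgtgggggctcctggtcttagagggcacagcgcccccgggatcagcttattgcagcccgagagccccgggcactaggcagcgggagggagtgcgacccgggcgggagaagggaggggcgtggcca
Cd34: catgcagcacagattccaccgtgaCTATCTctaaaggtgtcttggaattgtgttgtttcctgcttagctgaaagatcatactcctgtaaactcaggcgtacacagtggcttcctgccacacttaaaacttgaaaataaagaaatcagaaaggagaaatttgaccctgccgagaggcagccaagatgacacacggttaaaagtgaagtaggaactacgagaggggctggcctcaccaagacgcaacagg
Lyl1: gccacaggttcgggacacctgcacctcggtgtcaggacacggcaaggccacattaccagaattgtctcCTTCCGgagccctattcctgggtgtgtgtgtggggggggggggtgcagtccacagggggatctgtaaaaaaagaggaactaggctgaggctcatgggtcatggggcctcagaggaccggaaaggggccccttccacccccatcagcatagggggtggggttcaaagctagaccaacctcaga
In the whole 250 bases Kit held 1 PU.1 core, Cd34 held 1 GATA site and Lyl1 held 1 ETS core. Of 32851 promoter windows of 250 bases in the same table, 26.5% held a GATA site, 6.02% the E-box, 13.6% the ETS core and 10.6% the PU.1 core. Promoters of 6 of the 9 genes were in the table, and those of Myc, Fli1 and Spi1 were not.

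Stage libraries held between 1630863 and 11472763 counts, and knockout libraries between 3131142 and 15806844. Globin transcripts took 0.00528% of counts in BFU-E and 64.0% in ERY-VI on average, so CPM of every other gene are diluted in late gates. CPM are given per library total, with the SD after means, whereas log2 fold changes (± SE) come from edgeR with TMM scaling, which removes most of that dilution, and the 2 scales can differ in direction for genes that change little. In the stage series 12 libraries held Y-linked transcripts, namely replicates 1 to 3 of both progenitor gates, of ERY-I and of ERY-V, while the other 26 held Xist. All 30 knockout libraries held Y-linked transcripts. Chi-square per degree of freedom between same-group libraries, where 1 is counting noise alone, was 1.499 to 8.53 among libraries with Y-linked transcripts and 14.2 to 106.7 among those with Xist. The labels do not say that same-group libraries came from separate mice, so p-values measure the spread between these libraries, which may be technical. Glul, the gene of glutamine synthetase, was lower in GS-KO libraries in all 5 gates, from 98.8 ± 2.41 CPM against 122 ± 2.91 CPM in WT BFU-E to 23.3 ± 0.882 CPM against 254 ± 12.2 CPM in WT ERY-V-VI (SD, n = 3 each).

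The step from BFU-E to CFU-E asked which progenitor genes are lost as the erythroid progenitor advances. In both series Kit, Myc and Runx1 fell by 0.66 to 1.11 on the log2 scale. Log2 fold changes of Meis1, Erg, Fli1, Spi1 and Cd34 lay between -5.99 and -3.63, while Lyl1 passed the test in WT of the knockout series (-0.45) and missed it in the stage series (-0.30). Kit had 507, 518, 513, 273 and 211 CPM in the 5 CFU-E libraries, against 935, 949 and 955 CPM in the 3 BFU-E libraries. The groups did not overlap, and the 2 CFU-E libraries with Xist were the lowest. The log2 fold change was -1.11 ± 0.26 (edgeR quasi-likelihood test, Benjamini-Hochberg adjusted p = 0.0104). Myc had 316, 326, 315, 214 and 173 CPM in CFU-E, against 636, 606 and 613 CPM in BFU-E. It was lower in each CFU-E library than in any BFU-E library, with a log2 fold change of -1.08 ± 0.18 (adjusted p = 0.00212). Among WT libraries Kit had 478, 489.9 and 482 CPM in CFU-E, against 907, 900.3 and 917 CPM in BFU-E, a log2 fold change of -0.80 ± 0.02. Myc had 341, 321 and 339 CPM in WT CFU-E, against 679, 682 and 683 CPM in WT BFU-E, a log2 fold change of -0.92 ± 0.03.

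Meis1, the homeobox partner of HOXA9 in stem cells, had 0.436, 0.714, 1.06, 0 and 0.2 CPM in CFU-E, against 38.5, 37.4 and 41.0 CPM in BFU-E. All CFU-E libraries were near 0, and the log2 fold change of -5.99 ± 0.41 was the lowest of the 9 genes in the stage series. Spi1 had 0.764, 0.143, 0.769, 0 and 0 CPM in CFU-E, against 9.15, 15.1 and 9.04 CPM in BFU-E, with a log2 fold change of -4.60 ± 0.62. The ETS factor genes Erg and Fli1 averaged 0.833 ± 1.02 and 2.53 ± 2.40 CPM in CFU-E (SD, n = 5). In BFU-E they averaged 16.0 ± 3.60 and 49.3 ± 3.84 CPM (SD, n = 3). Their log2 fold changes were -4.21 ± 0.64 for Erg and -4.06 ± 0.63 for Fli1. Cd34 was low already in BFU-E, with 0.327, 0.286, 0.192, 0.193 and 0 CPM in CFU-E, against 3.05, 2.75 and 3.77 CPM in BFU-E, and fell by 3.68 on the log2 scale (SE 0.47).

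Runx1, the core binding factor subunit of definitive haematopoiesis, had 71.9, 74.7, 79.5, 62.2 and 65.2 CPM in CFU-E, against 128, 138 and 138 CPM in BFU-E. The groups did not overlap and Runx1 fell by 0.80 on the log2 scale (SE 0.09, adjusted p = 0.000393). Lyl1, a basic helix-loop-helix partner of the stem cell factors, had 31.0, 28.7, 31.3, 37.7 and 22.4 CPM in CFU-E, against 43.0, 35.9 and 43.2 CPM in BFU-E. The groups overlapped at 1 CFU-E library, and the log2 fold change of -0.30 ± 0.17 did not pass the test (adjusted p = 0.184). Per kilobase of merged exons in BFU-E, Myc averaged 227.5 ± 5.76 CPM and Kit 106 ± 1.155 CPM, ahead of Lyl1 with 22.6 ± 2.31 CPM (SD, n = 3). Next were Fli1 with 14.1 ± 1.10 CPM, Runx1 with 11.2 ± 0.5005 CPM, Erg with 4.63 ± 1.04 CPM, Spi1 with 4.11 ± 1.28 CPM and Meis1 with 3.70 ± 0.1755 CPM per kilobase. Erg, Spi1 and Meis1 were not separated by their SDs, and Cd34 was the lowest at 0.438 ± 0.0716 CPM per kilobase.

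In all, 8 of 9 genes were lower in CFU-E in the stage series, where 37.3% of 10807 tested genes were called, 18.2% higher and 19.1% lower (1964 higher and 2067 lower with TMM, 1438 and 2389 with library totals). The groups did not overlap in 8 of 9, as in 52.4% of tested genes. Within WT of the knockout series 9 of 9 were lower, where 70.5% of genes were called, 34.5% higher and 36% lower (3737 and 3895 genes, or 2858 and 4791 with library totals). Meis1, Spi1 and Cd34 in the stage series, and Erg, Spi1 and Cd34 in the knockout series, passed the count filter through BFU-E alone. The count of 8 rests on 3 BFU-E and 3 CFU-E libraries that are close to each other. With those replicates summed to 1 library in each gate only Meis1 was called, and in a fit of all stage groups together 2 of 9 were.

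**Figure D1:**
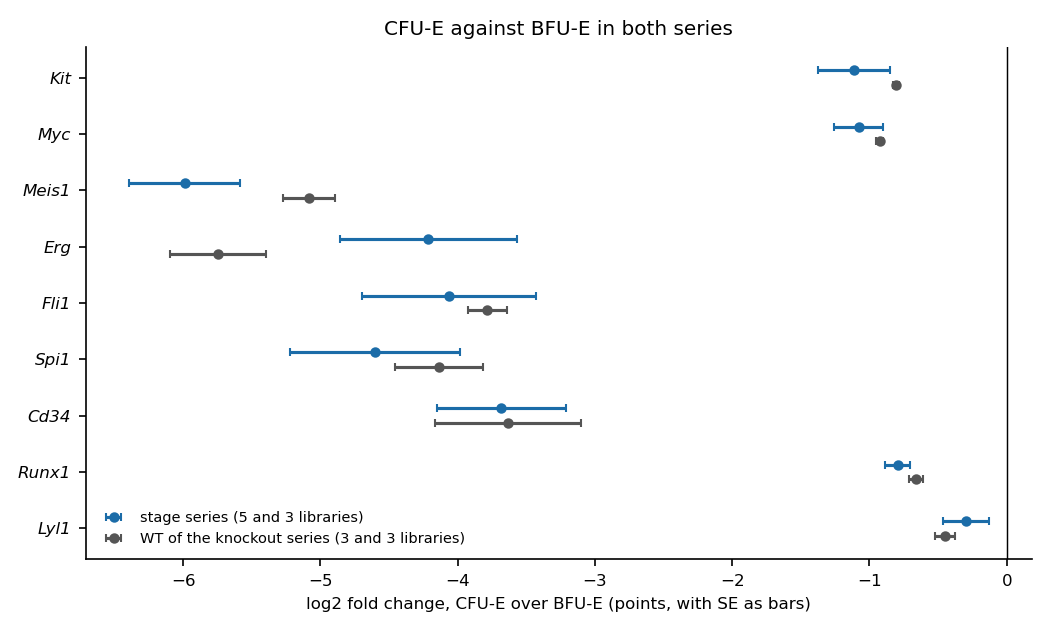
Log2 fold change of each gene in CFU-E over BFU-E (x axis, log2 scale, bars give the SE), for the stage series (5 and 3 libraries) and for WT of the knockout series (3 and 3 libraries). Points for Kit, Myc, Runx1 and Lyl1 lie between -1.11 and -0.30, while those for Meis1, Erg, Fli1, Spi1 and Cd34 lie between -5.99 and -3.63.

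Other genes of the same systems were read from lists of related genes. Of 20 tested KIT signalling genes 13 fell and 1 rose in CFU-E (median log2 fold change -0.85, against -0.01 over all genes), among them the docking protein gene Dok2 (0.453 ± 0.581 CPM in CFU-E, against 12.6 ± 1.34 CPM in BFU-E), the phospholipase gene Plcg2 (4.42 ± 2.66 CPM in CFU-E, against 46.1 ± 3.59 CPM in BFU-E) and the PI3-kinase subunit gene Pik3cd (23.1 ± 10.9 CPM in CFU-E, against 123 ± 2.36 CPM in BFU-E). Of 22 other progenitor transcription factors 13 fell and 1 rose (median -1.56), with Gata2 at 34.6 ± 19.8 CPM in CFU-E, against 404 ± 2.71 CPM in BFU-E, the Ikaros family gene Ikzf2 at 5.68 ± 4.84 CPM in CFU-E, against 72.5 ± 4.80 CPM in BFU-E and Hoxa7 at 1.27 ± 0.914 CPM in CFU-E, against 14.1 ± 2.998 CPM in BFU-E. Of 11 other ETS factors 7 fell and 1 rose (median -0.75), and of 8 progenitor surface receptors 7 fell (median -1.97), with Slamf1 (CD150) at 0.0790 ± 0.125 CPM in CFU-E, against 15.2 ± 1.81 CPM in BFU-E. Myc was lower in CFU-E, and of 12 tested textbook targets of MYC 5 rose and none fell (median 0.29; 3 rose with library totals), including the polyamine enzyme gene Odc1 (402 ± 39.3 CPM in CFU-E, against 207 ± 5.60 CPM in BFU-E, log2 fold change 1.10 ± 0.15), and within WT of the knockout series 9 rose and 1 fell (median 0.37). Of 10 MAX network genes 2 fell, one of them the MYC antagonist gene Mxd4 (14.4 ± 1.26 CPM in CFU-E, against 27.6 ± 2.14 CPM in BFU-E).

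From CFU-E to ERY-I, the proerythroblast gate, Kit and Myc fell further, while Spi1, Fli1 and Cd34 were highest in the 3 replicates with the most neutrophil transcripts. Kit ran from 2.11 over a median of 70.1 to 86.7 CPM in the 7 ERY-I libraries, against 211 to 518 CPM in CFU-E. All ERY-I libraries were below all CFU-E libraries, and replicates 6 and 7 had the least Kit at 2.11 and 18.8 CPM. The log2 fold change was -2.55 ± 0.54 (adjusted p = 0.00226). Myc ran from 18.0 over a median of 84.8 to 104 CPM in ERY-I, with a log2 fold change of -1.68 ± 0.33 (adjusted p = 0.00130). Within the libraries with Xist the log2 fold changes were -2.44 ± 0.76 for Kit and -1.73 ± 0.44 for Myc, and within those with Y-linked transcripts -2.49 ± 0.04 and -1.58 ± 0.05.

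Spi1 in ERY-I had 92.5, 94.0 and 91.0 CPM in replicates 1 to 3 and 4.18, 10.3, 1.95 and 0.818 CPM in replicates 4 to 7, against at most 0.769 CPM in CFU-E. Fli1 had 78.9, 86.7 and 78.1 CPM in ERY-I replicates 1 to 3 and 4.62, 7.73, 0 and 0 CPM in the other 4. Cd34 had 12.1, 15.7 and 11.3 CPM in replicates 1 to 3 and at most 5.38 CPM in the others. Erg and Meis1, which reached the minimum count in too few libraries to be tested, showed the same split, with 12.8 to 17.0 CPM of Erg and 4.70 to 7.26 CPM of Meis1 in replicates 1 to 3, and at most 0.936 and 1.40 CPM in the others. Replicates 1 to 3 are the ERY-I libraries with Y-linked transcripts. In these 3 libraries 9 neutrophil markers summed to 13450 to 13866 CPM, none of them at 0, and 11 monocyte and macrophage markers to 2452 to 2500.1 CPM. In the 4 ERY-I libraries with Xist the neutrophil sum was 45.9, 1259.8, 20.15 and 0.409 CPM in replicates 4 to 7. The 6 mast cell and basophil markers summed to 37.2 to 45.5 CPM in replicates 1 to 3 and to 0 to 3.28 CPM in the others, and the 5 endothelial markers to 34.1 to 42.5 CPM and 0 to 7.49 CPM. The part of these cells in the levels of Spi1, Fli1, Cd34, Erg and Meis1 was not tested, and in bulk RNA fewer cells of a type and less RNA per cell cannot be told apart. Log2 fold changes over CFU-E were 6.91 ± 1.41 for Spi1, 5.09 ± 1.16 for Cd34 and 4.05 ± 1.46 for Fli1 (adjusted p = 0.00174, 0.00335 and 0.0376). With only the libraries with Xist Fli1 was not called (4.89 ± 2.27, adjusted p = 0.111), and Spi1 was still called higher (adjusted p = 0.0128). Fli1 had 1 count over those CFU-E libraries. Spi1 had none in either, so its fold change is not given. Spi1 and Cd34 passed the count filter through ERY-I alone. The call of Fli1 also ended on leaving out any one of 8 of the 12 libraries, replicates 1 to 5 of CFU-E and 1 to 3 of ERY-I.

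Runx1 ran from 54.4 over a median of 81.5 to 118 CPM in ERY-I, against 62.2 to 79.5 CPM in CFU-E, and rose by a log2 fold change of 0.64 ± 0.15 (adjusted p = 0.00415). Its 3 highest ERY-I libraries were again replicates 1 to 3, and with Xist libraries alone it was not called (0.45 ± 0.18, adjusted p = 0.0712). Its call also ended with library totals (0.31, adjusted p = 0.26), in a fit of all stage groups (0.45, adjusted p = 0.178) and with the close replicates summed (0.54, adjusted p = 0.0683). Lyl1 ran from 52.4 over a median of 65.6 to 81.7 CPM in ERY-I, above all CFU-E libraries (22.4 to 37.7 CPM), and rose by 1.51 ± 0.22 (adjusted p = 0.000205). Unlike Spi1, Lyl1 did not separate the library sets, with 52.4 to 71.6 CPM in replicates 1 to 3 and 52.7 to 81.7 CPM in replicates 4 to 7. In ERY-I 5 of the 7 tested members were higher and 2 lower, where 46.4% of all genes were called, 25.4% higher and 20.9% lower (2660 and 2190 genes, or 1690 and 3475 with library totals). With the close replicates summed, or with only the libraries with Xist, 4 of the genes were called.

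Among related genes in ERY-I 11 of 12 MYC targets were lower and 1 was higher (median log2 fold change -1.19, against 0.05 over all genes). The nucleolar gene Npm1 averaged 678 ± 248 CPM in ERY-I, against 2705 ± 205 CPM in CFU-E, and the spermidine synthase gene Srm averaged 34.7 ± 16.4 CPM in ERY-I, against 158 ± 5.41 CPM in CFU-E. Of 9 MAX network genes 3 rose, all MYC antagonists, with Mxd1 at 376 ± 102 CPM in ERY-I, against 32.5 ± 5.44 CPM in CFU-E, Mxd3 at 49.4 ± 8.42 CPM in ERY-I, against 8.09 ± 5.96 CPM in CFU-E and Mxi1 at 197 ± 44.0 CPM in ERY-I, against 76.2 ± 10.5 CPM in CFU-E. Of 12 other ETS factors 5 rose (3 rose and 1 fell with library totals), led by the lymphoid genes Spib and Ets1, whose means of 44.2 ± 51.9 and 58.6 ± 67.8 CPM in ERY-I carry SDs above the mean. Of 19 other progenitor factors 3 rose, including Nfe2 (230.5 ± 61.2 CPM in ERY-I, against 73.1 ± 11.0 CPM in CFU-E), and 2 fell, including Myb (260.1 ± 210.1 CPM in ERY-I, against 954 ± 304 CPM in CFU-E).

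**Figure D2:**
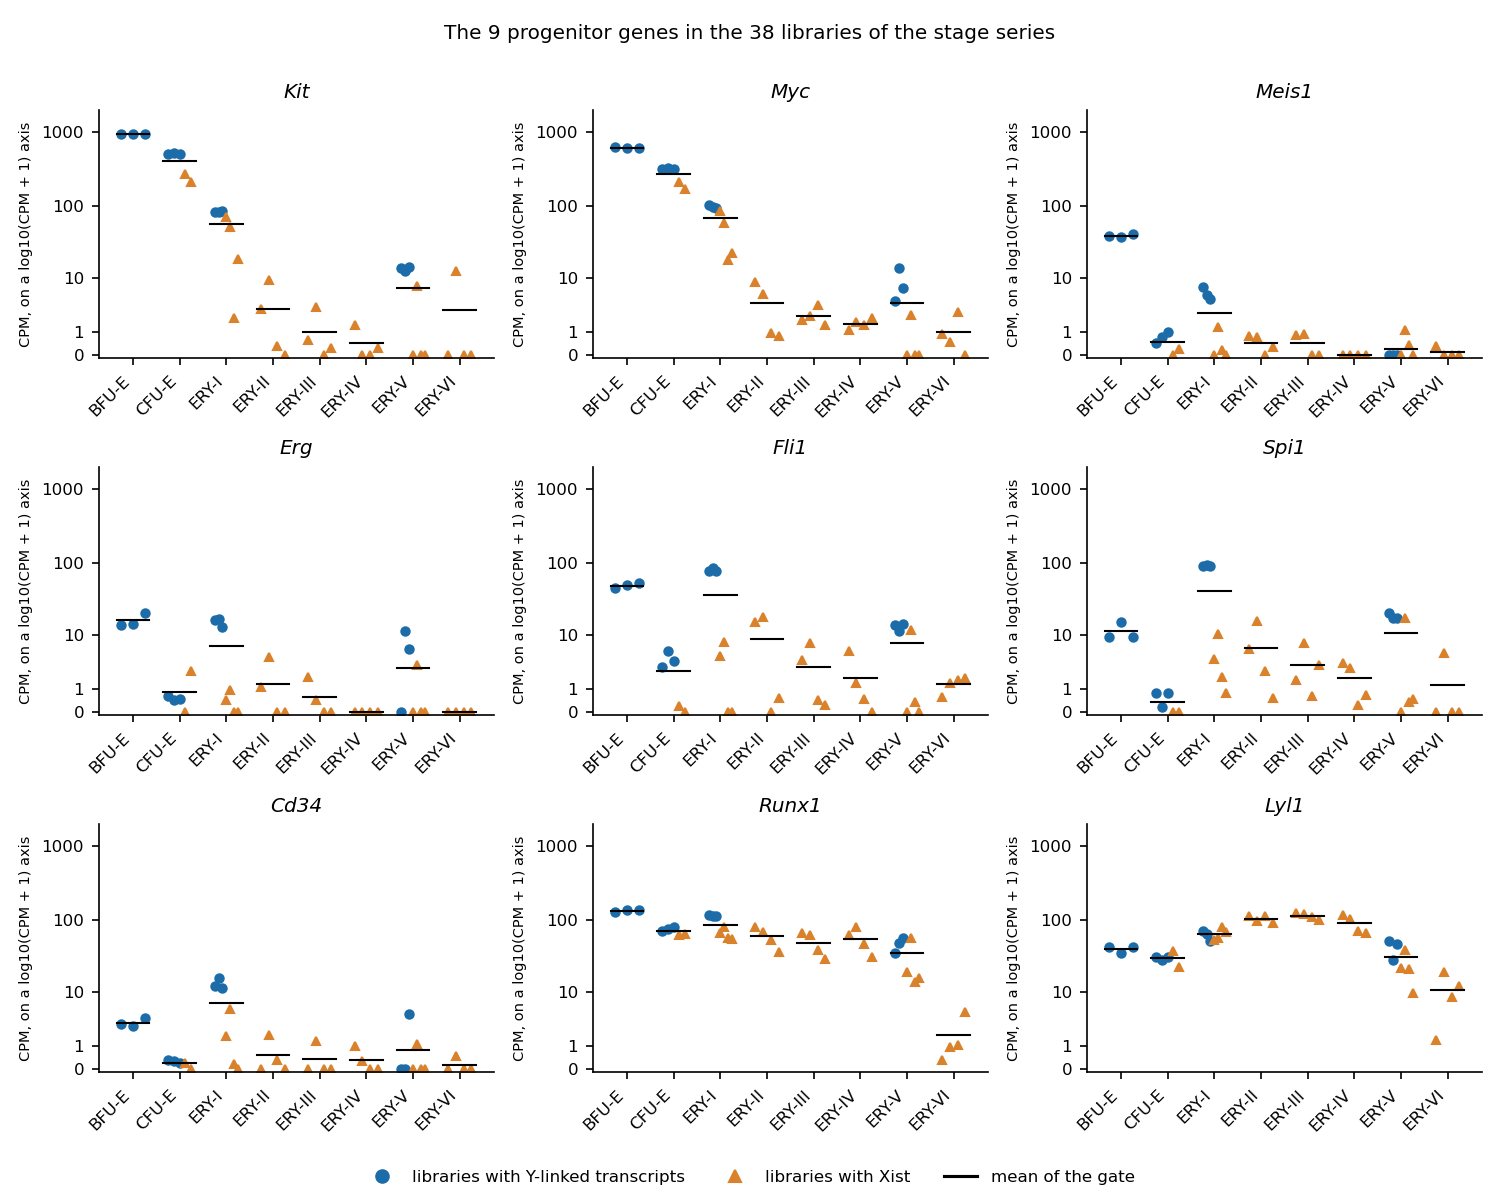
CPM of the 9 genes in each library of the 8 gates of the stage series, in order of maturation (x axis), on a log10(CPM + 1) axis, with circles for libraries with Y-linked transcripts, triangles for libraries with Xist and lines at gate means. Kit and Myc step down from BFU-E to ERY-II, gate means of Lyl1 stay at 30.2 CPM or more up to ERY-V, and the circles of Spi1, Fli1, Erg and Cd34 in ERY-I stand above the triangles.

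From ERY-I to ERY-II, the basophilic gate, Kit had 3.16, 9.18, 0.312 and 0 CPM in ERY-II, against 2.11 to 86.7 CPM in ERY-I. The groups overlapped at the lowest ERY-I libraries, and the log2 fold change of -2.99 ± 1.04 passed the test (adjusted p = 0.0354) but lost its call on leaving out any one of 8 of 11 libraries (replicates 1 to 5 of ERY-I and 1, 3 and 4 of ERY-II, adjusted p up to 0.0887) and with only libraries with Xist (-2.43, adjusted p = 0.0934). Myc had 8.68, 5.51, 0.937 and 0.789 CPM in ERY-II, below every ERY-I library, with a log2 fold change of -2.91 ± 0.62 (adjusted p = 0.00304). Lyl1 had 112, 97.3, 115 and 90.5 CPM in ERY-II, above every ERY-I library, and rose by 2.04 ± 0.23 on the log2 scale (adjusted p = 8.17e-05). Runx1 had 80.5, 68.3, 53.1 and 37.1 CPM in ERY-II, against 54.4 to 118 CPM in ERY-I, and the groups overlapped. Its log2 fold change was 0.80 ± 0.17 with TMM and -0.55 with library totals, which take the globin share in, so its direction depends on the scaling. Of 8 genes tested 2 were higher and 2 lower, where 45.3% of all genes were called, 20.2% higher and 25.1% lower (2091 and 2588 genes, or 423 and 6998 with library totals). Of the 12 MYC targets 10 were lower and 1 higher (median -2.41, against -0.35 over all genes), while Mxd1 averaged 864 ± 59.0 CPM in ERY-II.

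Spi1, Fli1 and Cd34 in ERY-II to ERY-VI were low and uneven. Replicate 2 had the highest Spi1 of ERY-II (15.8 CPM), ERY-III (7.35 CPM) and ERY-VI (5.20 CPM), and its neutrophil sums in those gates, 2074.5, 1183 and 810.0 CPM, were the highest of each gate as well. Their part in those levels was not tested. In ERY-V Spi1 had 20.7, 17.5 and 17.3 CPM in the 3 libraries with Y-linked transcripts, 17.1 CPM in replicate 5, and 0 to 0.503 CPM in the other 3, and these first 4 were the ones with neutrophil sums of 2712 to 3389 CPM. Kit had 13.8, 12.3 and 14.4 CPM in the 3 ERY-V libraries with Y-linked transcripts, 7.50 CPM in replicate 5 and 0 in the other 3. The 6 mast cell and basophil markers summed to 45.7, 14.2, 10.4 and 11.9 CPM in those 4 libraries and to 0 to 0.503 CPM in the other 3, and their part in the level of Kit was not tested. Kit was not called in ERY-V against ERY-IV (log2 fold change 4.19 ± 1.39, adjusted p = 0.0703).

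Past ERY-II 4, 3, 5 and 5 of the 9 genes reached the minimum count and were tested in the steps to ERY-III, ERY-IV, ERY-V and ERY-VI. None was called in ERY-III against ERY-II, where 0.185% of genes were (edgeR, with 1 of the 4 at an unadjusted p under 0.05, and 0 called by DESeq2). With same-numbered libraries as a block Runx1 was called there (log2 fold change -0.48, adjusted p = 0.0344). Runx1 was called in ERY-IV against ERY-III (0.75 ± 0.22, adjusted p = 0.0479, with 13.6% of genes called, 10.3% higher and 3.29% lower), a call that ended on leaving out any one of 6 of 8 libraries (replicates 2 to 4 of ERY-III and 1 to 3 of ERY-IV). None was called in ERY-V against ERY-IV, where 8.83% of genes were, 6.49% higher and 2.33% lower (3 of the 5 at an unadjusted p under 0.05, and 2 called by DESeq2). Erg and Meis1 had no count in ERY-IV, and Erg none in ERY-VI. In ERY-V 4 of the 7 libraries had no count of Erg either, and the others held 56 in all. With 3 counts allowed over the group, Erg was at least 7.61-fold lower per library total in ERY-VI than in ERY-V. On that scale the median log2 fold change of all genes was -2.24.

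Runx1 was low in ERY-VI, the red cells, with 0.294, 0.946, 1.12 and 4.91 CPM, against 13.8 over a median of 35.3 to 56.5 CPM in ERY-V. These came from 13 counts in all in ERY-VI and 799 in ERY-V. The groups did not overlap, and the log2 fold change was -2.63 ± 0.69 (adjusted p = 0.0307), the only call among 5 genes tested, where 7.83% of all genes were called, 3.32% higher and 4.51% lower. The call ended without any one of ERY-V replicates 2, 3 and 5 or ERY-VI replicates 1, 2 and 3, and with only libraries with Xist (adjusted p = 0.176). Scaled by library totals, calls ran to 156 higher and 478 lower in ERY-IV, 53 and 358 in ERY-V, and 7 and 2212 in ERY-VI, against 749 and 238, 454 and 163, and 167 and 227 with TMM. Lyl1 had 1.47, 19.4, 8.40 and 12.3 CPM in ERY-VI, against 9.56 over 27.9 to 51.7 CPM in ERY-V. Lyl1 overlapped between these gates and was not called, with a log2 fold change of 0.11 ± 0.57 with TMM and -1.60 with library totals. Per library total Lyl1 averaged 104 ± 11.6 CPM in ERY-II, 114 ± 11.3 CPM in ERY-III and 90.3 ± 24.9 CPM in ERY-IV (SD, n = 4 each). Neither step passed the test, and the order of these gates depends on the scaling. The log2 fold change in ERY-III over ERY-II was -0.06 ± 0.16 with TMM (adjusted p = 0.909) and 0.14 with library totals, and in ERY-IV over ERY-III 0.22 ± 0.16 (adjusted p = 0.417) and -0.34.

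Over the 8 gate means on the log2(CPM + 1) scale, the 5 genes most like Kit were Slc52a2, Crtap, Sdad1, 3110082I17Rik and Cmtr2, with Pearson r of 0.998 to 0.992 among 9354 genes. Those most like Myc were Hps4, Ppif, Dcun1d4, Vps8 and Gpatch4, with r of 0.999 to 0.998. Kit and Myc themselves had an r of 0.982. Many genes fall over these gates, and the 8 points share the globin dilution, so the values are a description.

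In WT of the knockout series the course could be read again with 3 libraries a gate. As in stage ERY-I, Kit and Myc were lower and Lyl1 was higher in WT ERY-I-II than in CFU-E. Fli1 went the opposite way from stage ERY-I, where its log2 fold change was 4.05. Kit had 12.8, 10.8 and 11.7 CPM in WT ERY-I-II, against 478 to 489.9 CPM in WT CFU-E, a log2 fold change of -4.94 ± 0.05, and Myc had 48.2, 48.7 and 46.8 CPM in WT ERY-I-II, against 321 to 341 CPM in WT CFU-E, a log2 fold change of -2.36 ± 0.05. Spi1 was not tested there. It had 0, 0.304 and 0.898 CPM in WT ERY-I-II, against 0.360 to 0.562 CPM in WT CFU-E, and the neutrophil sum of WT ERY-I-II was 109.6 to 117 CPM. Fli1 fell by 1.29 on the log2 scale (SE 0.41), with 0.748 to 1.10 CPM in WT ERY-I-II, against 1.68 to 3.61 CPM in WT CFU-E. It passed the count filter through WT CFU-E alone. Lyl1 rose to 60.8, 54.1 and 60.0 CPM, against 36.0 to 38.5 CPM in WT CFU-E (1.07 ± 0.08). Runx1 was called higher at 0.14 ± 0.06, turned to -0.29 with library totals, and lost its call without any one of 5 of the 6 libraries, all but WT ERY-I-II replicate 1. Of 5 genes tested 2 were higher and 3 lower, where 81.8% of genes were called, 39.9% higher and 41.9% lower (4068 and 4273 genes, or 2462 and 6211 with library totals).

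From WT ERY-I-II to WT ERY-III-VI Kit fell to 2.09, 2.15 and 2.39 CPM (-1.71 ± 0.26) and Myc to 7.61, 5.97 and 6.17 CPM (-2.13 ± 0.14), while Lyl1 rose to 110.4, 97.9 and 113 CPM (1.60 ± 0.07). In all 3 were higher and 2 lower of 5 tested, where 73.4% of genes were called, 35.3% higher and 38.1% lower (3355 and 3617 genes, or 1361 and 6611 with library totals). Fli1 and Runx1 made up the rest of the higher ones, Fli1 lost its call without WT ERY-I-II replicate 2 or 3, and Runx1 turned to -0.057 with library totals. Fli1 passed the count filter through WT ERY-III-VI alone. In WT ERY-V-VI against WT ERY-III-VI 3 of 5 were higher, where 31.2% were called, 18.4% higher and 12.9% lower (1475 and 1032 genes, or 403 and 5438 with library totals). They were Fli1, Kit and Runx1. Fli1 had 7.24, 2.87 and 3.81 CPM in WT ERY-V-VI, against 1.36, 1.67 and 1.59 CPM in WT ERY-III-VI, and rose by 2.74 ± 0.59 on the log2 scale (1.59 with library totals), a call kept on leaving out any one library. Fli1 passed the count filter through WT ERY-V-VI alone, and so had to differ to be tested. Kit had 3.97, 5.75 and 4.23 CPM in WT ERY-V-VI, against 2.09 to 2.39 CPM in WT ERY-III-VI, and rose by 2.21 ± 0.53 on the log2 scale from 55 against 50 counts in all. The neutrophil sum was 612 to 662 CPM in WT ERY-V-VI and 255 to 259 CPM in WT ERY-III-VI, with all 9 markers called higher, and its part in the levels of Fli1 and Kit was not tested. Kit lost its call with library totals (1.06), and Runx1 turned to -0.17.

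GS-KO was compared with WT in each gate. In GS-KO BFU-E the stem-side genes Cd34, Spi1, Erg and Fli1 were higher, Kit was slightly lower and Myc and Meis1 were not called. Cd34 had 26.2, 26.0 and 23.4 CPM in GS-KO BFU-E, against 2.07, 4.48 and 2.35 CPM in WT BFU-E. The groups did not overlap, and Cd34 rose by 3.08 ± 0.18 on the log2 scale, 8.45-fold (adjusted p = 4.22e-20). Spi1 had 35.8, 35.8 and 36.1 CPM in GS-KO BFU-E, against 10.5, 7.88 and 8.97 CPM in WT BFU-E, a log2 fold change of 2.004 ± 0.13. Erg averaged 24.5 ± 3.06 CPM in GS-KO BFU-E, against 13.2 ± 3.42 CPM in WT (0.92 ± 0.14), and Fli1 76.8 ± 1.08 CPM in GS-KO, against 43.1 ± 2.16 CPM in WT (0.84 ± 0.07). Kit had 788, 786 and 825 CPM in GS-KO BFU-E, against 907, 900.3 and 917 CPM in WT BFU-E, a log2 fold change of -0.17 ± 0.03 (adjusted p = 2.73e-07). Meis1 averaged 33.5 ± 2.62 CPM in GS-KO BFU-E and 32.7 ± 1.41 CPM in WT BFU-E, a log2 fold change of 0.05 ± 0.10. In all 4 were higher and 1 lower of 9, where 24% of 11356 genes were called, 15.4% higher and 8.59% lower.

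Markers of other cells moved with these genes. The 9 neutrophil markers summed to 7096 to 7172.5 CPM in GS-KO BFU-E, against 28.6 to 38.5 CPM in WT BFU-E, with all 9 called higher, and the 11 monocyte and macrophage markers to 624 to 638 CPM, against 13.3 to 14.8 CPM. The B cell markers summed to 35.7 to 50.4 CPM in GS-KO BFU-E, against 3.02 to 4.61 CPM in WT BFU-E. Mast cell and basophil markers summed to 19.9 to 20.9 CPM in GS-KO BFU-E, against 9.69 to 12.7 CPM in WT BFU-E, and endothelial markers to 32.7 to 41.7 CPM in GS-KO BFU-E, against 29.2 to 33.7 CPM in WT BFU-E. In GS-KO CFU-E these sums were 9.86 to 13.3 and 7.19 to 8.72 CPM, against 0.480 to 1.204 and 1.32 to 1.57 CPM in WT CFU-E. In GS-KO CFU-E the neutrophil sum was 4353 to 4434 CPM, against 26.1 to 30.1 CPM in WT CFU-E. No neutrophil marker was at 0 in either genotype. The 9 erythroid markers summed to 1781.5 to 1806.4 CPM in GS-KO BFU-E, against 744 to 757 CPM in WT BFU-E, with 7 called higher and 2 lower. In CFU-E 4 were higher and 4 lower. The 7 megakaryocyte and platelet markers summed to 27.7 to 31.3 CPM in GS-KO BFU-E, against 13.7 to 14.4 CPM in WT BFU-E. The part of all these markers in the levels of the 9 genes was not tested.

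In GS-KO CFU-E the genes that were low in WT CFU-E were higher, while Kit, Myc, Runx1 and Lyl1 differed by at most 0.26 on the log2 scale. Cd34 had 13.6, 13.3 and 14.0 CPM in GS-KO CFU-E, against 0.361, 0 and 0.240 CPM in WT CFU-E, 435 counts against 5, with a log2 fold change of 5.93 ± 0.31. Spi1 had 15.5, 16.6 and 14.4 CPM in GS-KO CFU-E, against 0.482, 0.562 and 0.360 CPM in WT (5.01 ± 0.25). Erg averaged 8.68 ± 1.70 CPM in GS-KO CFU-E and 0.201 ± 0.251 CPM in WT CFU-E, from 291 and 5 counts (5.32 ± 0.38). Fli1 averaged 24.5 ± 0.810 CPM in GS-KO CFU-E, against 2.94 ± 1.09 CPM in WT (3.06 ± 0.16), and Meis1 5.94 ± 0.738 CPM in GS-KO, against 0.903 ± 0.337 CPM in WT (2.72 ± 0.29). Myc had 389, 378 and 387 CPM in GS-KO CFU-E, against 341, 321 and 339 CPM in WT CFU-E, and rose by 0.20 ± 0.03. Kit had 515, 505 and 499 CPM in GS-KO CFU-E, against 478, 489.9 and 482 CPM in WT, and did not pass the test (0.06 ± 0.02, adjusted p = 0.0598). In all 7 were higher of 9, where 29.4% of genes were called, 17.9% higher and 11.5% lower, and the groups did not overlap in 9 of 9, as in 39.8% of genes. Erg, Spi1 and Cd34 passed the count filter through GS-KO alone. The call of Lyl1 (0.26 ± 0.08) ended without replicate 2 of either genotype.

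In the 3 ERY gates Kit was among the higher genes. Kit had 35.2, 35.04 and 27.1 CPM in GS-KO ERY-I-II, against 12.8, 10.8 and 11.7 CPM in WT ERY-I-II (1.59 ± 0.15). In ERY-III-VI it had 35.03, 34.0 and 35.3 CPM in GS-KO, against 2.09, 2.15 and 2.39 CPM in WT, 14.2-fold higher on the TMM scale (3.83 ± 0.20, adjusted p = 1.28e-23). In ERY-V-VI it had 59.0, 60.5 and 54.6 CPM in GS-KO, against 3.97, 5.75 and 4.23 CPM in WT (2.37 ± 0.27, adjusted p = 2.49e-06). In WT Kit went on falling from ERY-I-II to ERY-III-VI, whereas its GS-KO means were 32.5 ± 4.62, 34.8 ± 0.688 and 58.0 ± 3.10 CPM in the 3 gates.

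Spi1 and Fli1 stood apart in the same gates. Spi1 had 19.9, 23.6 and 23.8 CPM in GS-KO ERY-I-II, against 0, 0.304 and 0.898 CPM in WT (5.88 ± 0.33). It had 35.03, 36.8 and 33.3 CPM in GS-KO ERY-III-VI, against 1.56, 1.67 and 0.995 CPM in WT (4.40 ± 0.22), and 43.9, 49.9 and 54.8 CPM in GS-KO ERY-V-VI, against 2.34, 0.639 and 4.65 CPM in WT (2.89 ± 0.40). No GS-KO library overlapped with WT in any of these gates. Fli1 averaged 21.9 ± 2.13 CPM in GS-KO ERY-I-II, against 0.885 ± 0.186 CPM in WT. In ERY-III-VI it averaged 38.3 ± 5.05 CPM in GS-KO, against 1.54 ± 0.164 CPM in WT, and in ERY-V-VI 45.6 ± 3.94 CPM in GS-KO, against 4.64 ± 2.301 CPM in WT. Erg had 15.5, 14.1 and 17.3 CPM in GS-KO ERY-V-VI and no count in the 3 WT libraries. Per library total it was at least 63.8-fold higher, with 3 counts allowed over the WT group.

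Cd34 and Meis1 rested on few WT counts. Cd34 had 137 counts in GS-KO ERY-III-VI and 3 in WT, a ratio of CPM of 51.7 (95% interval for counting error only 17.3 to 254). In ERY-V-VI it had 136 counts in GS-KO and 1 in WT, a ratio of 81.1 (14.3 to 3225), and a log2 fold change of 4.84 with TMM. Meis1 had 65 counts in GS-KO ERY-V-VI and 1 in WT, a ratio of 38.7 (6.71 to 1553). Its log2 fold change was 3.79 with TMM, and its call (adjusted p = 0.0167) ended on leaving out 5 of the 6 libraries in turn, all but WT replicate 2. These ratios are per library total, where the median log2 fold change of all genes in ERY-V-VI was 1.44 (0.15 with TMM). Myc had 25.7, 16.2 and 22.7 CPM in GS-KO ERY-III-VI, against 7.61, 5.97 and 6.17 CPM in WT (1.55 ± 0.19). In ERY-V-VI Myc had 27.5, 23.3 and 24.0 CPM in GS-KO, against 3.97, 3.51 and 7.61 CPM in WT, and its call (0.98 ± 0.37, adjusted p = 0.0417) ended on leaving out 5 of the 6 libraries, all but WT replicate 3.

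Runx1 and Lyl1 differed by at most 0.59 between the genotypes on the log2 scale with TMM. Lyl1 had 68.0, 72.5 and 75.1 CPM in GS-KO ERY-I-II, against 60.8, 54.1 and 60.0 CPM in WT (0.43 ± 0.08), and 101, 102 and 89.5 CPM in GS-KO ERY-III-VI, against 110.4, 97.9 and 113 CPM in WT (-0.29 ± 0.07). The groups overlapped in ERY-III-VI, and that call ended with library totals (-0.13). In ERY-V-VI both genes were higher in GS-KO per library total, with Runx1 at 79.5 ± 5.51 CPM in GS-KO and 49.2 ± 11.2 CPM in WT, and Lyl1 at 86.2 ± 7.73 CPM in GS-KO and 52.7 ± 1.25 CPM in WT. With TMM both were lower, at -0.59 ± 0.16 and -0.58 ± 0.13, so their direction depends on the scaling. The call of Runx1 ended without GS-KO replicate 3. Globin took 7.76% of counts in GS-KO ERY-V-VI and 19.7% in WT, and the median log2 fold change of all genes there was 0.15 with TMM and 1.44 with library totals.

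In ERY-I-II Runx1 had 62.2, 66.3 and 67.7 CPM in GS-KO, against 54.3, 58.5 and 59.6 CPM in WT, and its call (0.30 ± 0.08) ended with library totals (0.19, adjusted p = 0.057). In all 7 genes were higher of 8 tested in ERY-I-II, where 40.4% of all genes were called, 22.9% higher and 17.5% lower. They were 6 higher and 1 lower of 8 in ERY-III-VI, where 55.9% were called, 31.4% higher and 24.5% lower. In ERY-V-VI they were 7 higher and 2 lower of 9, where 42.9% were called, 22.4% higher and 20.5% lower. Scaled by library totals, there were 1792 higher and 3179 lower calls in ERY-I-II, 3957 and 1339 in ERY-III-VI and 7219 and 361 in ERY-V-VI, against 2278 and 1739, 3132 and 2444, and 2110 and 1924 with TMM. Some of these genes passed the count filter through GS-KO libraries alone, and so had to differ to be tested. They were Erg, Fli1, Spi1 and Cd34 in ERY-I-II, Erg and Cd34 in ERY-III-VI, and Meis1, Erg and Cd34 in ERY-V-VI. The neutrophil sum was 6246 to 6334 CPM in GS-KO ERY-I-II, against 109.6 to 117 CPM in WT. It was 9989.5 to 10069 CPM in GS-KO ERY-III-VI, against 255 to 259 CPM in WT, and 13456 to 13636 CPM in GS-KO ERY-V-VI, against 612 to 662 CPM in WT. Macrophage markers summed to 1294 to 1298 CPM in GS-KO ERY-V-VI, against 74.7 to 81.6 CPM in WT, and B cell markers to 64.2 to 75.5 CPM in GS-KO, against 2.96 to 8.41 CPM in WT. Mast cells also express Kit, and the 6 mast cell and basophil markers summed to 2.66 to 4.81 CPM in GS-KO ERY-I-II, against 0.299 to 0.405 CPM in WT. Their sum was 4.78 to 6.89 CPM in GS-KO ERY-III-VI, against 0 to 0.209 CPM in WT, and 5.84 to 6.43 CPM in GS-KO ERY-V-VI, against 0 to 0.319 CPM in WT. The 5 endothelial markers, of a cell type that also expresses Erg, Fli1 and Cd34, summed to 4.21 to 5.61 CPM in GS-KO ERY-I-II, against 0.599 to 0.783 CPM in WT. They summed to 6.67 to 8.57 CPM in GS-KO ERY-III-VI, against 0 to 0.199 CPM in WT, and to 11.5 to 17.8 CPM in GS-KO ERY-V-VI, against 0.319 to 3.04 CPM in WT. Cma1 was at 0 in all 3 libraries of GS-KO ERY-III-VI, Cma1 and Gzmb in those of GS-KO ERY-I-II and ERY-V-VI, and Cdh5 and Kdr in those of GS-KO ERY-I-II. The 9 erythroid markers summed to 91569 to 92858 CPM in GS-KO ERY-V-VI, against 197950 to 200720 CPM in WT, with 0 called higher and 9 lower. In ERY-I-II 7 were higher and 1 lower, and in ERY-III-VI 2 and 6. The 7 megakaryocyte and platelet markers summed to 35.6 to 39.5 CPM in GS-KO ERY-V-VI, against 16.5 to 24.3 CPM in WT. Of these 3 were tested, with 1 called higher and 1 lower. The part of all these markers in the genotype differences was not tested.

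**Figure D3:**
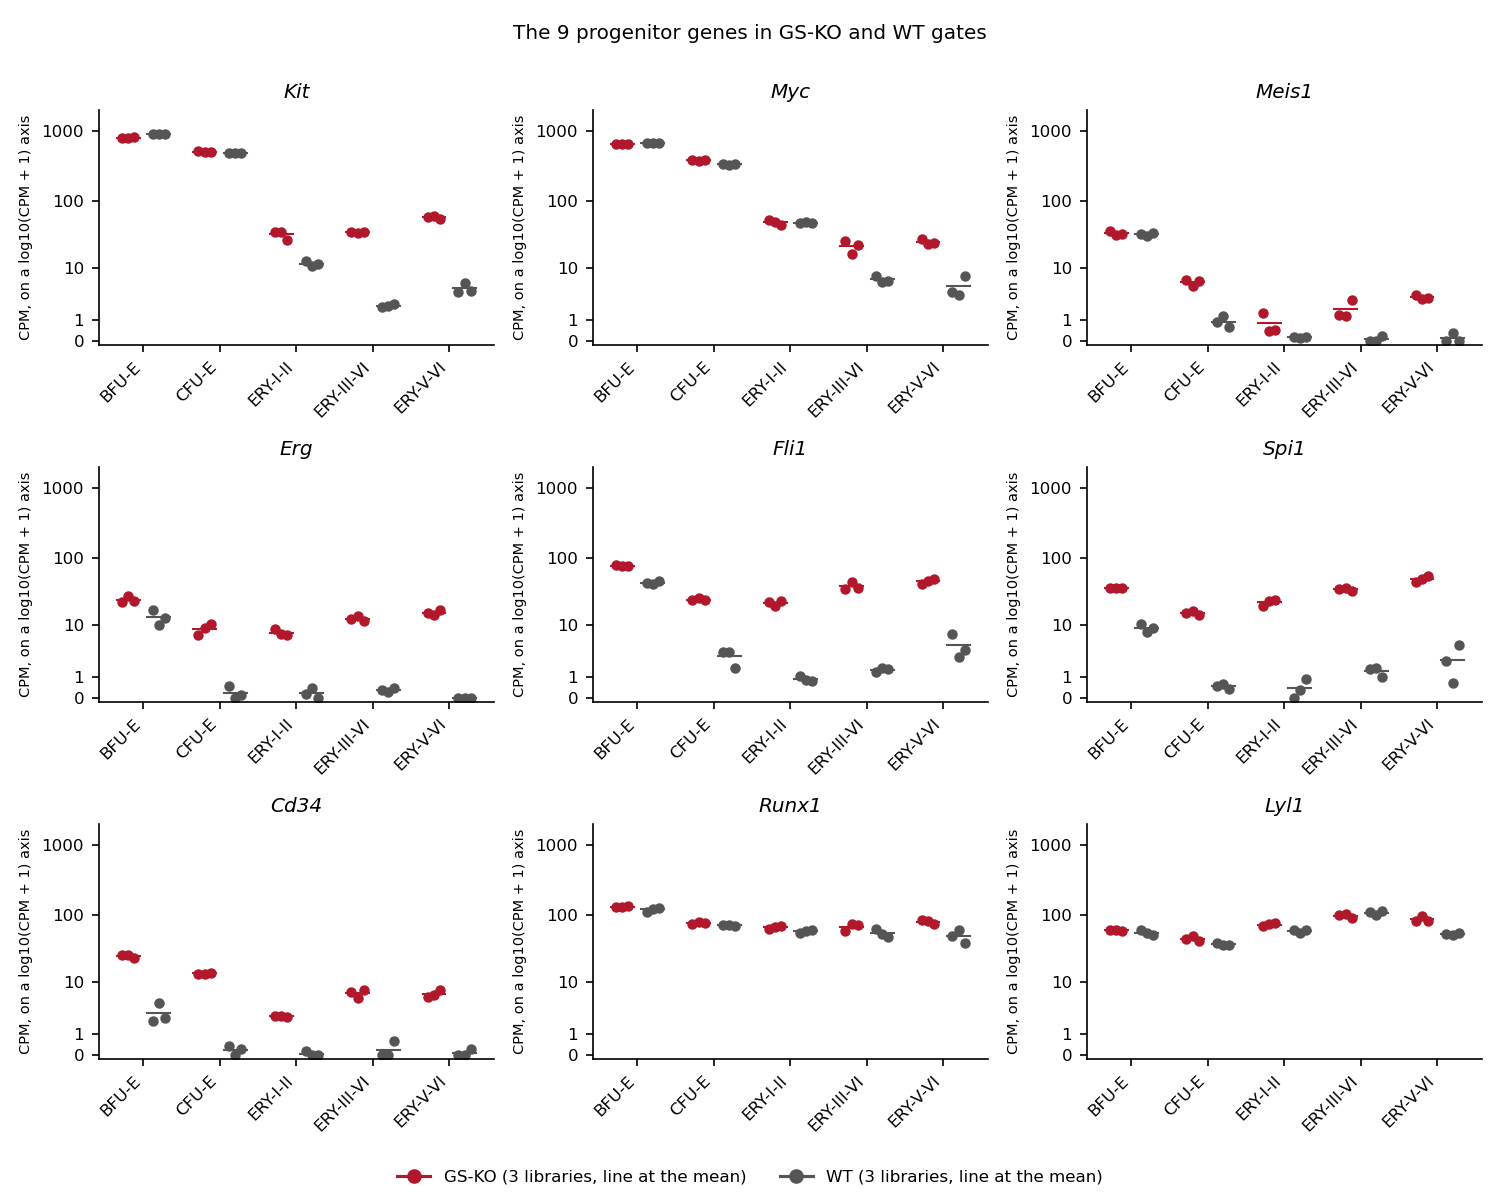
CPM of the 9 genes in the 5 gates of the knockout series (x axis), on a log10(CPM + 1) axis, with GS-KO (red) left of WT (grey), 3 libraries each and lines at the means. Spi1, Fli1, Erg and Cd34 stand apart in all 5 gates, Kit in the ERY gates, where its GS-KO means are 32.5 to 58.0 CPM, and Runx1 and Lyl1 lie closer together.

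The difference between the genotypes varied over the gates for 9 of 9 genes (interaction of genotype with gate, edgeR, adjusted p from 1.11e-31 for Kit to 0.000796 for Cd34), as for 61.2% of 12051 genes. For Kit the log2 fold change was -0.17 ± 0.03 in BFU-E and 3.83 ± 0.20 in ERY-III-VI, and for Meis1 0.05 ± 0.10 in BFU-E and 2.72 ± 0.29 in CFU-E. All 9 were still called on leaving out any single knockout library. The interaction was run with TMM only, and the ERY-V-VI differences of Runx1 and Lyl1 change direction with library totals. A plot of Spi1, Cd34, Kit and Lyl1 against the neutrophil sum covers the ERY libraries. Outside those gates Spi1 had 9.04 to 15.1 CPM in stage BFU-E at neutrophil sums of 47.4 to 54.1 CPM, whereas in WT ERY-V-VI it had 0.639 to 4.65 CPM at sums of 612 to 662 CPM. Lyl1 was at 82.4, 95.1 and 81.2 CPM in GS-KO ERY-V-VI and at 99.7 CPM in an ERY-III library with a neutrophil sum of 0.880 CPM. The part of the neutrophil markers in these levels was not tested.

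**Figure D4:**
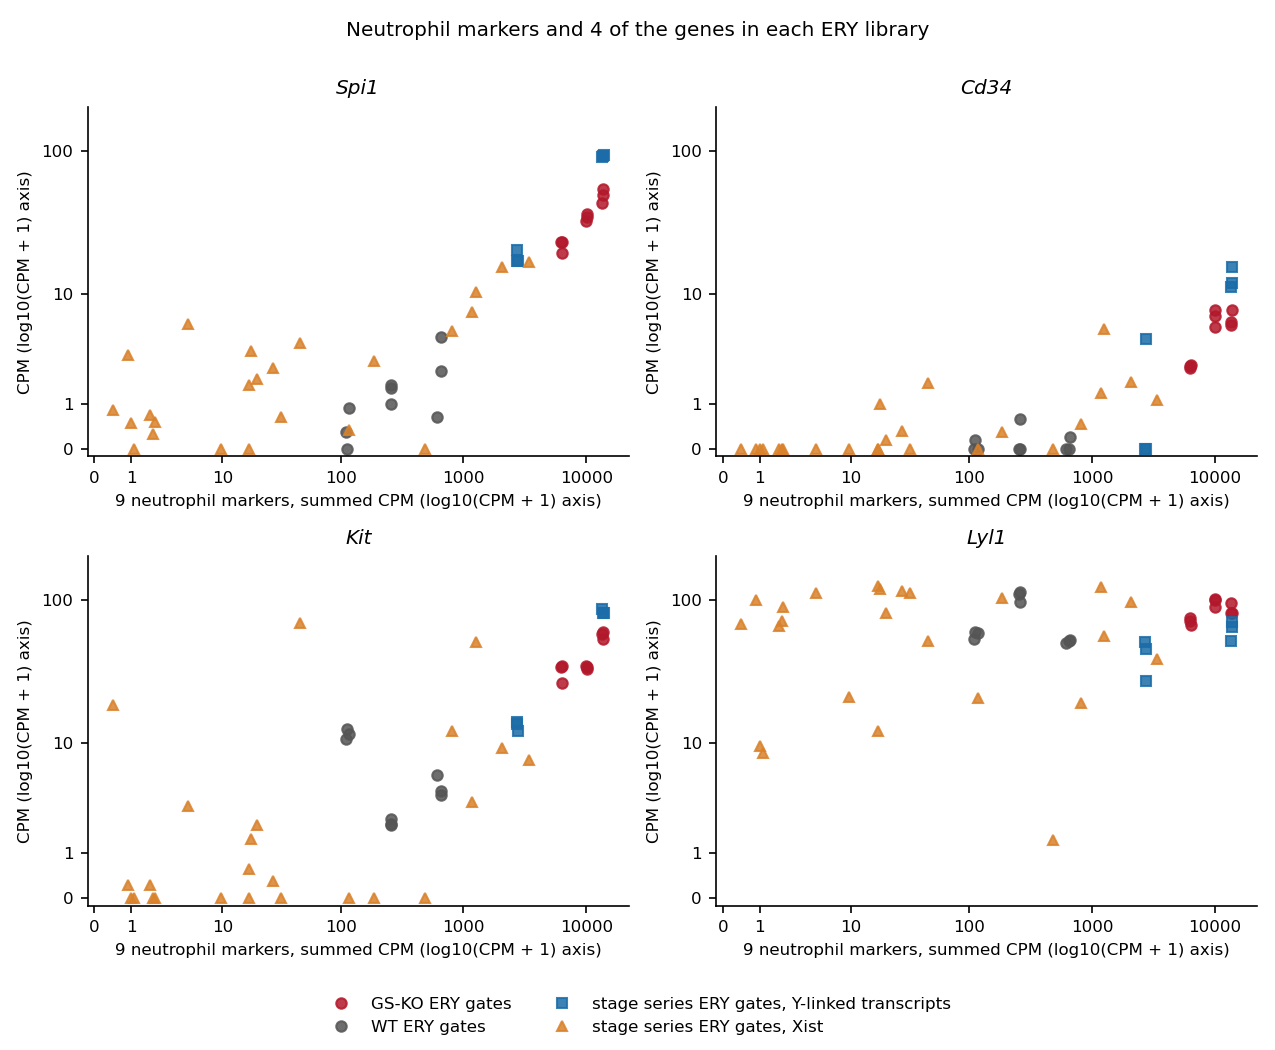
CPM of Spi1, Cd34, Kit and Lyl1 (y axes) against the summed CPM of 9 neutrophil markers (x axis) in each library of the ERY gates, both on log10(CPM + 1) axes. Libraries with sums of 6246 CPM or more, the GS-KO gates and ERY-I replicates 1 to 3, have Spi1 between 19.9 and 94.0 CPM, and Lyl1 reaches 124 CPM in an ERY-III library with a sum of 17.1 CPM.

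Related genes in GS-KO were read from the same lists. Of 8 tested progenitor surface receptors 7 rose and none fell in GS-KO ERY-III-VI (median log2 fold change 4.32, against 0.05 over all genes), led by the common beta chain gene Csf2rb (27.0 ± 2.05 CPM in GS-KO, against 0.515 ± 0.417 CPM in WT), the tetraspanin gene Cd9 (16.1 ± 1.26 CPM in GS-KO, against 0.419 ± 0.466 CPM in WT) and Ptprc, the pan-leukocyte phosphatase CD45 (90.5 ± 6.81 CPM in GS-KO, against 3.19 ± 1.38 CPM in WT). In GS-KO BFU-E 8 of 11 rose and 1 fell, led by Flt3, the receptor of lymphoid and myeloid progenitors (16.0 ± 2.56 CPM in GS-KO, against 0.214 ± 0.0987 CPM in WT). Of KIT signalling genes 11 of 19 rose and 5 fell in GS-KO ERY-III-VI (median 0.51; 12 and 1 with library totals), with Plcg2 at 63.9 ± 1.67 CPM in GS-KO, against 2.93 ± 0.816 CPM in WT, Pik3cd at 30.7 ± 1.62 CPM in GS-KO, against 1.62 ± 0.996 CPM in WT and Lyn at 35.5 ± 6.28 CPM in GS-KO, against 1.82 ± 0.716 CPM in WT, all of which leukocytes express widely. MYC targets were mostly lower in GS-KO BFU-E (0 higher and 8 lower of 12) and ERY-I-II (1 and 8). The median log2 fold changes were small, at -0.11 and -0.18 (-0.01 over all genes in both), where 8.59% and 17.5% of all genes were called lower. The targets were mostly higher in ERY-III-VI (10 higher and 1 lower) and ERY-V-VI (8 and 1). Medians were 0.69 and 1.12 (0.05 and 0.15 over all genes), where 31.4% and 22.4% of all genes were called higher. In each of these gates the larger count was on the same side with library totals. In ERY-V-VI Ldha, the lactate dehydrogenase gene, averaged 59.4 ± 9.98 CPM in GS-KO, against 8.504 ± 3.29 CPM in WT. The ETS factor gene Ets1 was higher in GS-KO in each of the 5 gates. It averaged 34.1 ± 1.39 CPM in GS-KO BFU-E, against 3.60 ± 0.513 CPM in WT BFU-E, and 59.0 ± 5.14 CPM in GS-KO ERY-V-VI, against 2.61 ± 0.822 CPM in WT ERY-V-VI. Gfi1 and Cebpa, factors of neutrophil development, averaged 14.7 ± 1.25 and 16.5 ± 2.08 CPM in GS-KO BFU-E, against 0.115 ± 0.122 and 2.84 ± 0.702 CPM in WT BFU-E. Among the antagonists of MYC Mxd1 was higher in GS-KO BFU-E (82.8 ± 2.98 CPM in GS-KO, against 27.9 ± 2.57 CPM in WT) and lower in GS-KO ERY-V-VI (886 ± 6.99 CPM in GS-KO, against 1304 ± 14.8 CPM in WT, log2 fold change -1.85 ± 0.04).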

How the data were processed

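The starting point was a pair of raw count tables, deposited by the authors, of 38 stage and 30 knockout libraries. STAR 2.5.2b, HTSeq and the build mm10 are named in the submitters' processing notes, and per the labels the libraries came from a SMARTer pico kit for stranded total RNA. Neither the annotation nor the strand setting is given in the sources used here. Members and lists of related genes were chosen with earlier results of these data known. Counts were tested with edgeR 4.0.16 in R 4.3.3 (quasi-likelihood, TMM, minimum count 10 and minimum total 15) in 16 comparisons, each fitted on its own groups, and genotype by gate was tested as an interaction over the 5 knockout gates. P-values were adjusted by Benjamini-Hochberg over all tested genes, and genes under 0.05 were called. Alternatives were DESeq2 1.42.0, other size factors, library totals, no filter, no globin genes, a replicate block, 1 fit of all groups, library sets and leaving out each library.

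All 9 members and Glul are named, with up to 3 called genes of each related list, those with the largest log2 fold changes among genes of at least 5 CPM on average, and the 5 genes most like Kit and Myc among those of at least 10 CPM in a gate. No set of same-group libraries fell under a chi-square per degree of freedom of 1.2, so none was merged. The replicate numbers come from the sample titles, which do not say what they share. Deviations of same-numbered libraries correlated above 0.1 in every pair for ERY-I with CFU-E (0.328 to 0.413), ERY-III with ERY-II (0.519 to 0.814) and ERY-IV with ERY-III (0.328 to 0.749). These are called paired here, but the main tests used no block, which was run only as an alternative. Only for ERY-III with ERY-II did every library correlate best with its own number. In simulated CFU-E against BFU-E counts of 10807 genes the test found 34.7% of genes changed by 1 and 85.6% of those changed by 2 on the log2 scale, with 4.92% false calls. For GS-KO CFU-E against WT CFU-E, with 10859 genes, these were 93.8% and 100%, with 6.03% false calls. Simulated libraries were drawn independently, without library sets or close replicates, so these rates need not hold for the real libraries.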

Additional observations from a re-analysis of the deposited data

Results flagged for a closer look

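In 11 of 60 sets, each of 1 gene in 1 gate with 4 to 7 libraries, 1 library lay far from the others. The cut flags about 1 in 20 sets of normally spread values, a rate that does not hold for counts near 0. There a single read can flag a library, as for Meis1 and Cd34 in ERY-VI, with 1 count each over 4 libraries. The highest library had 3.45 CPM of Kit in ERY-III (3.447), 1.51 CPM in ERY-IV (1.513) and 12.3 CPM in ERY-VI. For Meis1 it had 1.14 CPM in ERY-V (1.142) and 0.294 CPM in ERY-VI (0.2944). For Erg it had 2.60 CPM in CFU-E (2.601), and for Spi1 5.20 CPM in ERY-VI (5.204). For Cd34 it had 1.84 CPM in ERY-II (1.836), 1.38 CPM in ERY-III (1.379), 4.46 CPM in ERY-V and 0.473 CPM in ERY-VI (0.4731). Replicate 2 was that library for Kit in ERY-III and ERY-VI, for Spi1 in ERY-VI and for Cd34 in ERY-II, ERY-III and ERY-VI. Its neutrophil sums of 2074.5 CPM in ERY-II, 1183 CPM in ERY-III and 810.0 CPM in ERY-VI were the highest of those gates, and their part in these values was not tested.

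The difference of GS-KO from WT varied between the 5 gates for all 9 genes by the interaction of genotype with gate (edgeR with TMM only, Benjamini-Hochberg). The adjusted p was 1.111e-31 for Kit, 1.584e-10 for Myc, 5.614e-09 for Meis1, 1.584e-13 for Erg and 3.296e-19 for Fli1. It was 1.511e-11 for Spi1, 0.0007961 for Cd34, 3.705e-06 for Runx1 and 2.26e-11 for Lyl1.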

How the results depend on the processing

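Of 824 results under alternatives other than leaving out a library, 761 kept their side of the threshold, and 41 lost and 15 gained a call. Another 7 changed sign with a call in the main or the alternative fit. Results called in neither fit count among the 761 whatever their sign. Among them was Fli1 in ERY-II against ERY-I, at -0.90 in the main fit and 2.56 with only libraries with Xist. The 7 changes of sign that involved a call came with library totals. Runx1 turned to -0.55 in ERY-II against ERY-I, -0.29 in WT ERY-I-II against WT CFU-E, -0.057 in WT ERY-III-VI against WT ERY-I-II and -0.17 in WT ERY-V-VI against WT ERY-III-VI, where Lyl1 turned to -1.02. In GS-KO ERY-V-VI Runx1 and Lyl1 both turned to 0.71. Library totals moved the median log2 fold change of all genes to -1.68 in ERY-II (-0.35 with TMM), -2.24 in ERY-VI (-0.34) and 1.44 in GS-KO ERY-V-VI (0.15), where calls were 7219 higher and 361 lower against 2110 and 1924 with TMM.

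Of the 9 genes, 8 were called in CFU-E against BFU-E, 2 with all groups in 1 fit and 1 with the close replicates summed, an alternative chosen after seeing the data, as was leaving out libraries for the interaction. In ERY-I against CFU-E 4 were called with Xist libraries only and 4 with replicates summed. In ERY-IV against ERY-III 0 were called with library totals, with no filter, without globin genes or with all groups in 1 fit. In ERY-V against ERY-IV 2 were called by DESeq2, 1 with library totals, 3 with no filter and 3 with all groups in 1 fit. In ERY-VI against ERY-V 0 were called with Xist libraries only or with replicates summed. In WT ERY-III-VI 3 were called with library totals and in WT ERY-V-VI 5 with all groups in 1 fit.

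With the replicate block 1 gene was called in ERY-III against ERY-II and 0 in ERY-VI against ERY-V. In unpaired comparisons the block gave a call to Lyl1 in CFU-E (-0.35) and Spi1 in ERY-II (-2.26), and took it from Runx1 in ERY-VI (-2.95) and WT ERY-I-II (0.14) and from Myc (1.06) and Meis1 (3.83) in GS-KO ERY-V-VI. It changed no other call.

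Leaving out each library gave 8 to 9 calls in CFU-E, 5 to 7 in ERY-I, 3 to 4 in ERY-II, 0 in ERY-III, 0 to 1 in ERY-IV, 0 to 2 in ERY-V and 0 to 1 in ERY-VI. In WT it gave 9 in CFU-E, 4 to 5 in ERY-I-II, 4 to 6 in ERY-III-VI and 3 to 4 in ERY-V-VI. For GS-KO it gave 5 to 6 in BFU-E, 6 to 8 in CFU-E, 7 in ERY-I-II, 7 to 8 in ERY-III-VI, 6 to 8 in ERY-V-VI and 9 for the interaction. The causes were not tested. Counts were few in ERY-VI for most of the 9 genes. Over its 4 libraries there were 0 counts of Erg, 1 each of Meis1 and Cd34, 9 of Myc, 11 each of Fli1 and Spi1 and 13 of Runx1. Kit had 26, all in replicate 2, and Lyl1 had 81.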
